A study of Mus musculus with 6 samples.

Results

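Secreted antagonists of Wnt signalling were examined at 7 mouse genes: Sfrp1, Sfrp2, Sfrp4 and Sfrp5, Dkk1 and Dkk3, and Wif1. Every region of the deposited methylation tables that overlapped a window of each gene plus about 2 kb on either side (build mm9) was taken, which gave 64 regions with 726 CpGs out of 209687 regions in all. Sfrp1 lies on chromosome 8, Sfrp2 on 3, Sfrp4 on 13, Sfrp5 and Dkk1 on 19, Dkk3 on 7 and Wif1 on 10. Of the 64 regions, 54 had a value in all 6 samples and were tested, and 10 were blank in at least 1 sample.

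The samples were bisulfite-sequenced, captured DNA of colon epithelial cells scraped from C57BL/6 mice aged 18 weeks. There were 3 groups of 2 samples: control mice, mice given azoxymethane (AOM, a chemical carcinogen) and dextran sulfate sodium (DSS, which damages and inflames the colon lining), and AOM/DSS mice also treated with curcumin, the yellow pigment of turmeric. Tumors of the right part of the colon and its proximal segment were removed before scraping, per the labels, and whether tumors elsewhere were removed is not stated. The labels used here give no doses or schedules. Nothing in the labels ties replicates to separate animals, so the p-values measure the spread between these samples, which may be technical. The libraries held 24682973 to 30727568 methylation calls, with a median of 89 to 106 calls per region. Marker genes of epithelium, leukocytes and stroma were not analysed here, so the labelled cell type was not checked, and in these bulk samples a level between 0 and 100% from a mixture of cells and one from differing alleles within cells cannot be told apart.

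Wnt proteins keep the stem cells at the base of the colonic crypts dividing, by stabilising beta-catenin. Secreted frizzled-related proteins (Sfrp genes) and Wnt inhibitory factor 1 (Wif1) bind Wnt proteins outside the cell, and Dickkopf 1 (Dkk1) blocks the Lrp5/6 co-receptors; Dkk3 is a divergent member of the Dickkopf family whose receptor is less clear. In human colorectal tumors the CpG islands at the promoters of several of these genes are well known to gain methylation. The question put to the data was whether their promoters or gene bodies differed between the groups.

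RefSeq promoter sequences (build GRCm38.p6, 300 bases around the annotated start) were matched by symbol for 4 of the 7 genes. They are shown with CpGs, the sites at which methylation can be read, in capitals. Which of these CpGs lie in the deposited regions was not determined. The sequences lie at chr3:83766071-83766370 on the + strand for Sfrp2, chr19:42202203-42202502 on the - strand for Sfrp5, chr19:30549447-30549746 on the - strand for Dkk1 and chr10:121033754-121034053 on the + strand for Wif1, in coordinates of that build and not of the regions. Each is written 5′ to 3′ on the strand of the gene:
Sfrp2: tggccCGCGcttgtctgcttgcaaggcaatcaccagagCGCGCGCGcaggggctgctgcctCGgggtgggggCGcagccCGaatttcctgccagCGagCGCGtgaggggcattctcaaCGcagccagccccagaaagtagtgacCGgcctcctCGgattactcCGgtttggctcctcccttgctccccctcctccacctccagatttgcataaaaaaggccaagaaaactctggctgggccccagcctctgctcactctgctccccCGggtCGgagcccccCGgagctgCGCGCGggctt
Sfrp5: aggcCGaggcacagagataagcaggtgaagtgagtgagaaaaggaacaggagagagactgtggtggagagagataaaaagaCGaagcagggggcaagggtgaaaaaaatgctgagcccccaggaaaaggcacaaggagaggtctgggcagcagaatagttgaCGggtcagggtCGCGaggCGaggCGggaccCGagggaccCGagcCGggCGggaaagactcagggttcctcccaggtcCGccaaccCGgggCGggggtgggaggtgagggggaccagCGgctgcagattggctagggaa
Dkk1: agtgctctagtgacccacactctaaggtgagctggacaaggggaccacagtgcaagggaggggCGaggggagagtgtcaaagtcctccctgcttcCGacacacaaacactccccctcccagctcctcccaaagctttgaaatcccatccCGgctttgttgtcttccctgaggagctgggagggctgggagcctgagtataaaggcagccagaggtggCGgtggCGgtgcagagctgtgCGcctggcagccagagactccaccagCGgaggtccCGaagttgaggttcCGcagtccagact
Wif1: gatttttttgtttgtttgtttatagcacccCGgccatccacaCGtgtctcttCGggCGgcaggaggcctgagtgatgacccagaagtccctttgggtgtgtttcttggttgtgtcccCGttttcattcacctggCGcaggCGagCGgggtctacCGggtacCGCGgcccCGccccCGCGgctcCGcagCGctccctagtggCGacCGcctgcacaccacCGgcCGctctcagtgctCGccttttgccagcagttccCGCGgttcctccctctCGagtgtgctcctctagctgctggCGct

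The 300 bases held 25 CpGs in Wif1, 22 in Sfrp2, 15 in Sfrp5 and 9 in Dkk1. Among 32851 RefSeq promoters of the same length, whose median was 7 CpGs, 18.4% had at least as many as Wif1, 23.1% as Sfrp2, 34.6% as Sfrp5 and 45.8% as Dkk1. A search on both strands for CTTTGAA and CTTTGAT, forms of the site that the Wnt effectors Tcf and Lef recognise, found 1 match, to CTTTGAA in Dkk1, a gene known as a Wnt target. CTTTGAA occurs in 5.14% and CTTTGAT in 3.73% of all these promoters, and neither motif holds a CpG.

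Promoter islands were defined without methylation values, as regions with at least 5 CpGs, and at least 5 per 100 bases, within 5000 bases of the 5′ edge of a window. This gave 16 island regions at 6 of the 7 genes, of which 15, with 369 CpGs, were tested. Dkk1 had none, since its 2 regions held 4.35 and 4.33 CpGs per 100 bases, and they are described with the islands because they lie at the 5′ end. The level of a gene is the percentage of methylated calls among all calls of its regions in a library.

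In control epithelium these promoters were nearly free of methylation at Wif1, Sfrp5, Dkk1, Sfrp2 and Sfrp1, and held a moderate amount at Sfrp4 and Dkk3. The island levels in control were 0.434% ± 0.0678 (SD, n = 2) at Wif1, 3.37% ± 0.415 at Sfrp5, 4.83% ± 0.895 at Sfrp2, 5.14% ± 0.215 at Sfrp1, 12.1% ± 1.11 at Sfrp4 and 13.96% ± 1.42 at Dkk3. The 2 control libraries of each gene lay above those of the gene before it in this order, except for Sfrp1 and Sfrp2, which overlapped. The Dkk1 regions stood at 4.01% ± 1.47. Of the 15 island regions, 12 had a control mean under 10%, with a median of 3.58% over all 15. Among the 46066 regions of the whole table that met the same minimum CpG density and number, 69.04% were under 10%, and their median was 2.30%. Those regions lie anywhere and not only at promoters, and 17.6% of them were over 70% in control, against 0 of the 15.

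**Figure D1:**
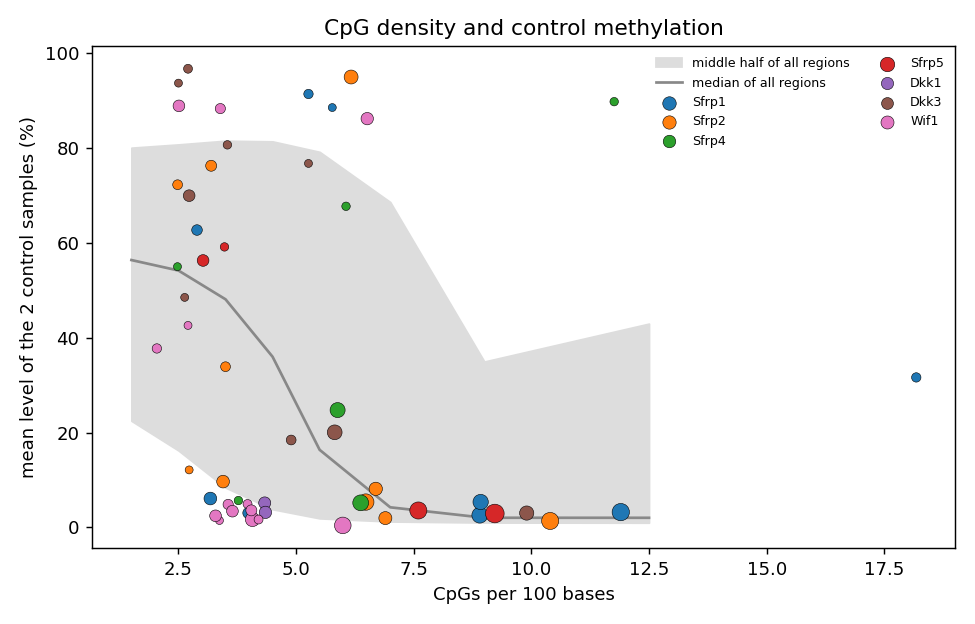
CpG density against methylation in control. Each point is 1 of the 54 tested regions (x axis: CpGs per 100 bases; y axis: mean level of the 2 control samples in percent; larger points hold more CpGs; colours are genes), over the median and the middle quartiles of all regions. Most promoter-island points lie low at high density, while a dense 19-CpG region at the 3′ end of Sfrp2 lies at 95.02% and sparse Wif1 regions lie under 5%.

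The Sfrp1 island was low in every library. Its levels were 4.99% and 5.29% in the control libraries, 5.19% and 5.06% in AOM/DSS and 4.86% and 5.83% with curcumin, with 775 to 1123 calls per library. The 3 groups overlapped. In control replicate 0 the 95% Wilson interval ran from 3.86% to 6.42%; this and later intervals and limits cover counting error only, and calls from a shared read are not independent. The richest region, chr8:24522240-24522508 with 32 CpGs, held 3.71% and 2.77% in control, 5.21% and 4.8% in AOM/DSS and 5.71% and 4.52% with curcumin. Both treated groups lay above control there, AOM/DSS by 1.77 points, which did not pass (edgeR adjusted p = 0.870). The upstream end of the promoter was more methylated: a 6-CpG island region at chr8:24520025-24520057 stood between 22.7% and 50% on 24 to 76 calls.

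Sfrp2 had 5 island regions, of which 4 were tested. Its island held 4.19% and 5.46% in control, 4.04% and 5.27% in AOM/DSS and 4.65% and 5.99% with curcumin, so that all 3 groups overlapped. The richest region, chr3:83569859-83570156 with 31 CpGs, held 1.71% and 1.03% in control and 1.56% and 1.77% in AOM/DSS. With curcumin it held 0.355% and no methylated call among 195, which allows a level of up to 1.54%. As measured, both curcumin libraries lay below the other 4, but the limit of 1.54% reaches above the 1.03% of control replicate 1. The mean difference was -1.49 points from AOM/DSS (edgeR unadjusted p = 0.0221, adjusted p = 0.928) and -1.19 points from control (edgeR unadjusted p = 0.0315, adjusted p = 1), and neither passed. The 17-CpG region at chr3:83570801-83571054, at the inner end of the same island, went the other way, at 9.23% and 12.6% with curcumin, above the 5.93% and 6.62% of AOM/DSS and the 7.53% and 8.75% of control (edgeR adjusted p = 0.940 against AOM/DSS).

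Sfrp4 and Dkk3 had islands made of a low and a partly methylated section. At Sfrp4 the 26-CpG region chr13:19714838-19715245 held 5.16% and 5.23% in control, and the neighbouring 23-CpG region chr13:19715308-19715698 held 27.1% and 22.4%. In AOM/DSS the second of them held 22.5% and 32.1% and with curcumin 27.3% and 23.8%, so the groups overlapped. Over the whole island, AOM/DSS replicate 1 had the highest level of the 6 libraries, 15.7%, and AOM/DSS replicate 0 the lowest, 10.6%.

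At Dkk3 the outer region chr7:119302397-119302774, with 22 CpGs, was the partly methylated one and the inner 20-CpG region chr7:119301808-119302009 was low. The inner region stood at 3.04% ± 2.95 in control (SD, n = 2). The outer region held 20.8% and 19.4% in control, 16.7% and 15.8% in AOM/DSS and 20.6% and 18.6% with curcumin. AOM/DSS was the lowest group there without overlap, with a difference of -3.83 points from control, but did not pass (edgeR adjusted p = 0.909). Between them a 7-CpG region that is not dense enough to count as island held 13.6% to 23.3%. Over both regions the AOM/DSS libraries, at 11.9% and 11.3%, lay below control (14.96% and 12.96%) and curcumin (14.8% and 12.3%). With islands set at 3 CpGs per 100 bases, which adds regions, the difference between AOM/DSS and control shrank from -2.36 to -0.825 points.

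Sfrp5 and Wif1 kept low islands in all 6 libraries. The Sfrp5 island of 69 CpGs held 3.66% and 3.08% in control, 4.78% and 3.35% in AOM/DSS and 4.73% and 4.68% with curcumin. Its 38-CpG region, chr19:42276302-42276713, ranged from 1.47% to 6.31%. The Wif1 island is a single region, chr10:120470797-120471280 with 29 CpGs, which held 0.482% and 0.386% in control, 0.334% and 1.65% in AOM/DSS and 2.10% and 0.929% with curcumin. The curcumin libraries lay above control at Sfrp5, by 1.34 points, and at Wif1, by 1.08 points (edgeR adjusted p = 1 for the Wif1 region). At Sfrp5 this held for the summed calls only, since curcumin and control overlapped in each of its 2 island regions. With islands at 3 CpGs per 100 bases the Wif1 differences turned in sign, to -0.0284 points for curcumin and from 0.557 to -0.357 points for AOM/DSS, both against control.

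The Dkk1 regions were as low as the low islands. The upstream 13-CpG region chr19:30623873-30624172 held 4.8% and 5.56% in control, 6.49% and 6.94% in AOM/DSS and 3.25% and 3.36% with curcumin. The 3 groups did not overlap, yet the differences were 1.54 points for AOM/DSS against control (edgeR adjusted p = 0.949) and -3.41 points for curcumin against AOM/DSS (edgeR adjusted p = 0.954), on 119 to 154 calls per library. The adjacent 14-CpG region chr19:30623528-30623849 held 0.662% to 4.68% with all groups overlapping.

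**Figure D2:**
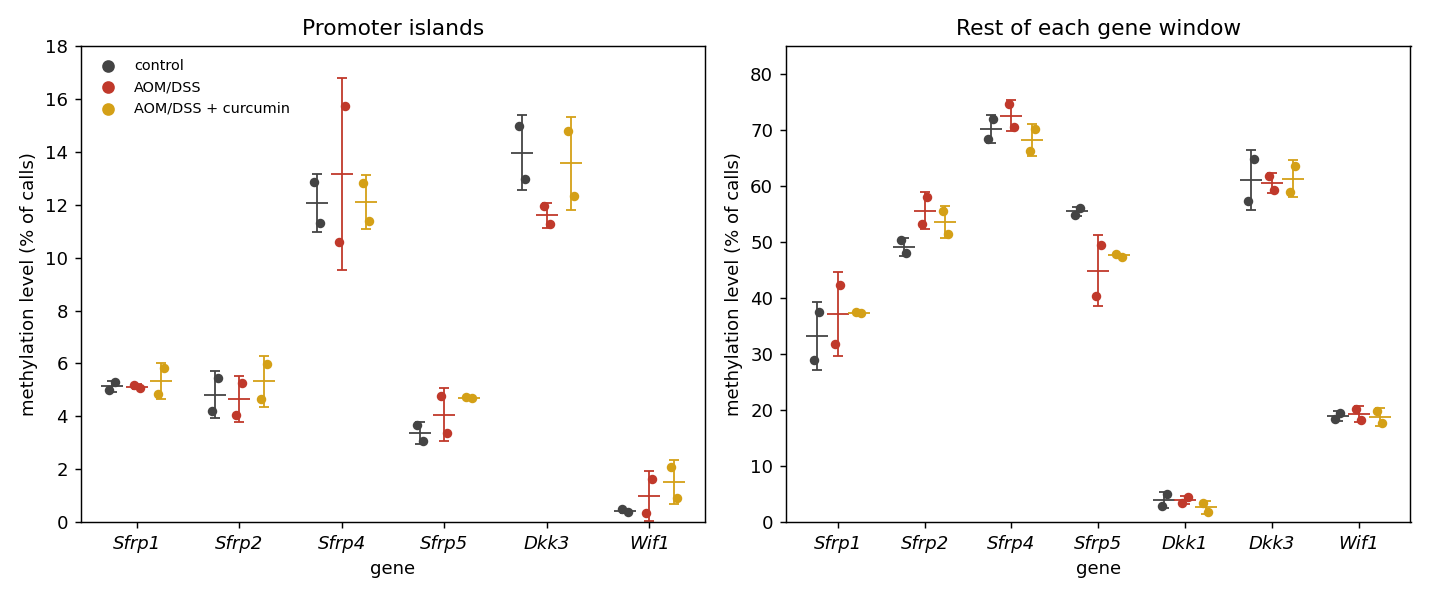
Methylation level per gene (y axis, percent of calls) in the promoter islands (left) and in all other regions of the window (right; the 2 promoter regions of Dkk1 are here). Points are the 6 libraries, bars the mean ± SD of the 2 libraries of a group. No island rises above 15.7% in any library, and the groups differ by at most 2.36 points in the mean.

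Outside the islands the windows held 39 tested regions with 317 CpGs. Their levels spread from near 0 to near 100%, with a control median of 48.5%. Over the 133856 regions of the whole table that are not dense the median was 50.98%, but the 39 include some dense regions away from the promoter. In Sfrp1, Sfrp2, Sfrp4, Sfrp5, Dkk3 and Wif1 tested regions beyond the island reached higher levels than the island. At Dkk3 the region 1.97 kb beyond the richest island region (chr7:119300552-119300671) stood at 93.7% ± 1.01 in control (SD, n = 2), and at Sfrp1 the region 24.3 kb beyond it stood at 91.4% ± 0.0647. Some CpG-dense regions away from the promoter were methylated: the 19-CpG region of Sfrp2 at chr3:83577131-83577438 held 94.8% to 98.2% in the 6 libraries, and the 14-CpG region of Wif1 at chr10:120520881-120521095 held 79.8% to 93.5%. Whether these regions lie in exons or introns was not assigned, since no annotation of build mm9 was used.

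Wif1 held low regions in its body as well as at its promoter. Beyond the 5000 bases at the 5′ edge, 6 of its 11 tested regions averaged under 10% over the 6 libraries, against 0 of 11 in the other 6 genes together, though no test of this difference was made. Among the 133856 regions of the whole table that are not dense, wherever they lie, 25.46% had a control mean under 10%. Regions that were blank in a library are not in the counts of the 7 genes, and some of those were low too. Examples are chr8:24546091-24546195 in Sfrp1, at 0 to 13.6% in the 4 libraries with a value, and chr19:42271042-42271087 in Sfrp5, at 0 to 4.76%. The low Wif1 regions fell in 3 places. At 25.5 and 25.8 kb from the island, chr10:120496431-120496677 and chr10:120496721-120496945 held 0 to 5.08% and 2.27% to 10.1%. At 55.4 to 56.1 kb, 3 regions from chr10:120526347-120526465 to chr10:120526962-120527326 held at most 3.33% in any library, the last of them on 555 to 755 calls. The region at chr10:120533025-120533353, the farthest, held 2.12% to 8.31%. Between these places lay methylated regions, such as chr10:120508074-120508309 at 88.4% ± 1.88 in control (SD, n = 2). All 6 low regions held 3.29 to 4.20 CpGs per 100 bases and so were not dense.

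Summed over all regions outside the island, the genes kept a wide order in control, from Wif1 at 18.97% ± 0.852 (SD, n = 2) to Sfrp4 at 70.2% ± 2.49. Wif1 held 18.4% and 19.6% in control, 20.2% and 18.2% in AOM/DSS and 19.9% and 17.7% with curcumin. Sfrp1 held 28.9% and 37.5% in control, 31.9% and 42.4% in AOM/DSS and 37.5% and 37.3% with curcumin. In both genes the groups overlapped.

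Dkk3 outside its island held 57.3% and 64.8% in control, 61.8% and 59.2% in AOM/DSS and 59% and 63.6% with curcumin, again with overlap. Sfrp4 held 68.4% and 71.9% in control, 74.5% and 70.6% in AOM/DSS and 66.2% and 70.2% with curcumin, so that curcumin lay below AOM/DSS, by a difference of -4.32 points. Sfrp5 held 54.9% and 56.03% in control, 40.4% and 49.5% in AOM/DSS and 47.9% and 47.4% with curcumin. Both treated groups lay below control at Sfrp5, with differences of -10.5 and -7.83 points on 116 to 186 calls from 2 regions. Of these, only the 12-CpG region chr19:42272573-42272969 was lower without overlap in both. In the 4-CpG region chr19:42275172-42275286 both treated groups overlapped control, whose libraries held 86.4% and 32.0%. The size of the summed differences depended on the regions and libraries used: AOM/DSS minus control ran from -5.99 points without AOM/DSS replicate 0 to -15.1 with all regions that had a value. Without AOM/DSS replicate 1 it was -15.07 points, on the same 2 regions in both groups. Curcumin minus control ran from -6.26 points as a mean of region levels to -11.5 with at least 30 calls and -17.3 with all regions that had a value. That last setting adds chr19:42271204-42271338 and chr19:42271042-42271087, which were blank in both control libraries and held 0 to 4.76% in treated libraries. With all regions that had a value, the differences of -15.1 and -17.3 points thus compare unlike sets of regions. Sfrp2 held 50.3% and 48.01% in control, 53.2% and 58.01% in AOM/DSS and 55.6% and 51.5% with curcumin, and both treated groups lay above control in these summed calls, which the other weightings given further on did not bear out.

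**Figure D3:**
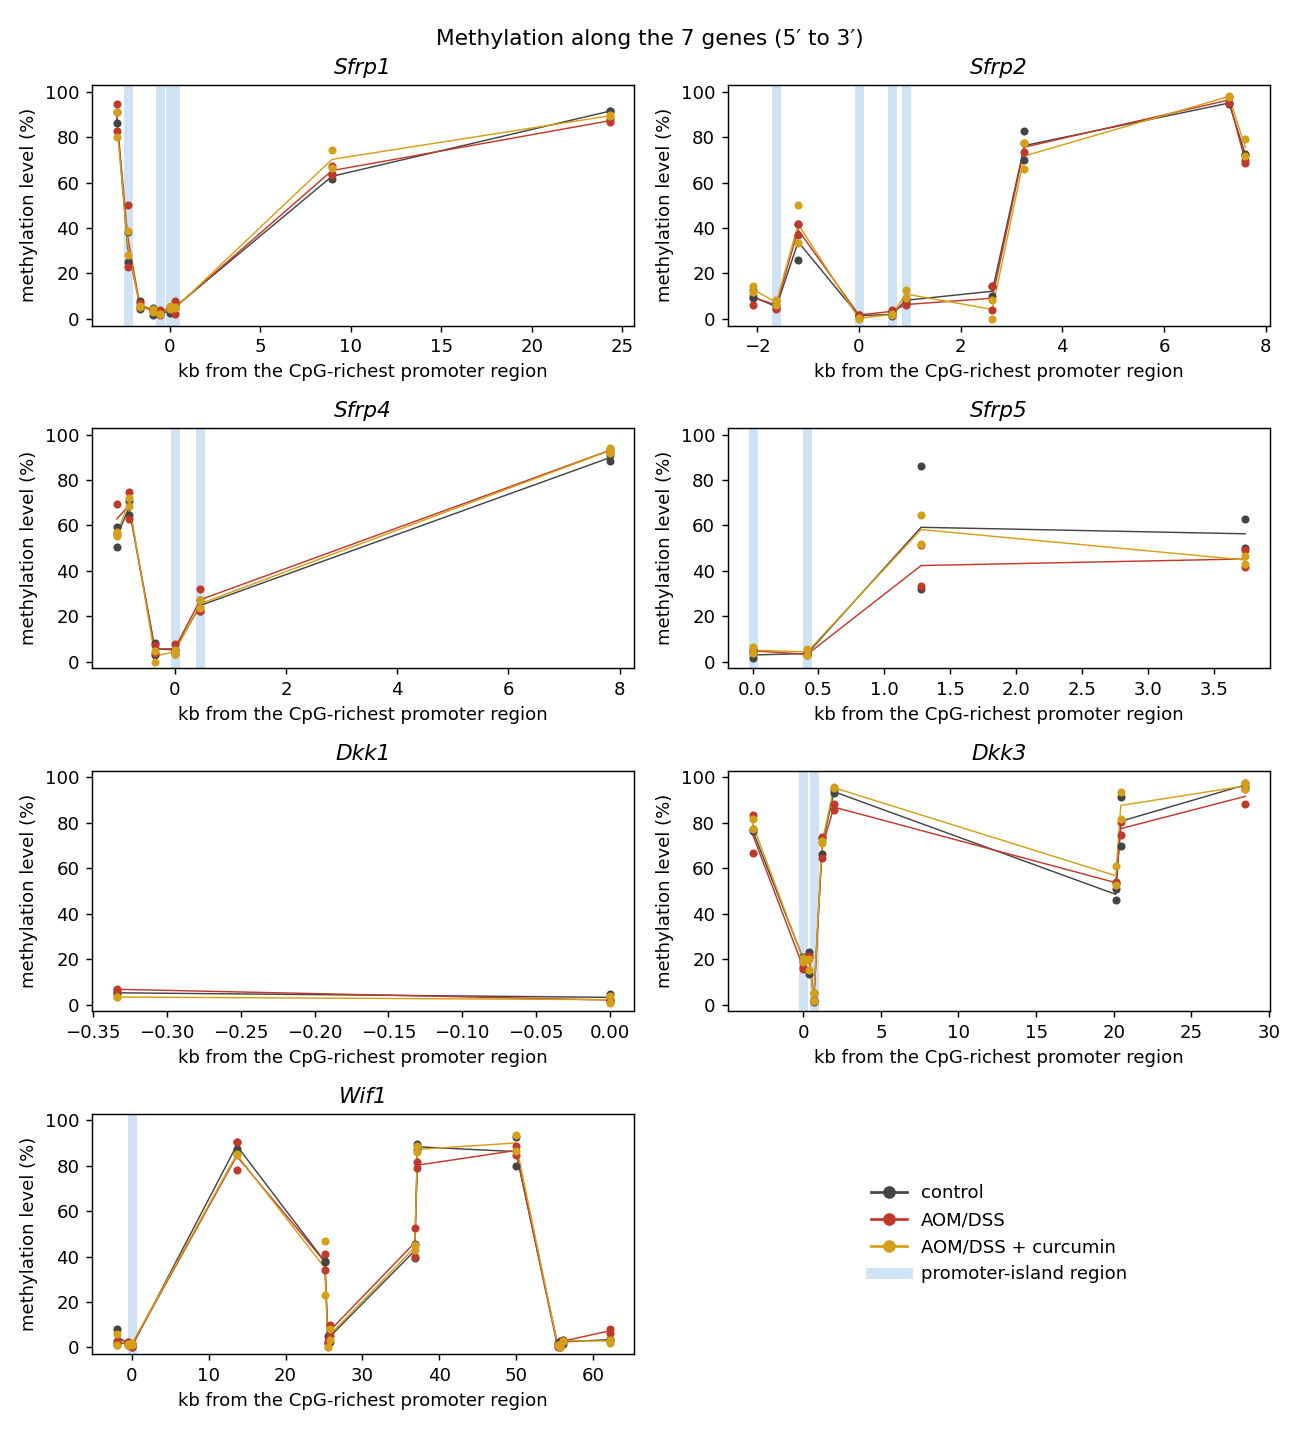
Methylation along each gene, 5′ to 3′ (x axis: kb from the centre of the CpG-richest promoter region, with a scale of its own in each panel; y axis: level in percent). Points are libraries, lines join group means, and pale bars mark promoter-island regions. In Sfrp1, Sfrp2, Sfrp4, Dkk3 and Wif1 the lines of all 3 groups run lower at the promoter islands and reach over 70% farther in. Sfrp1, Sfrp4 and Dkk3 have more methylated regions upstream of the island as well. Wif1 also has low places in its body, Sfrp5 reaches intermediate levels and Dkk1 has promoter regions only.

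The first comparison asked whether AOM/DSS, which gives rise to colon tumors in mice, altered these genes in the remaining epithelium. No promoter region was called as changed. A call needed a difference of at least 10 points. It could thus not show a loss in the Dkk1 regions or in 12 of the 15 island regions, all with control means under 10%. Of the 54 regions 0 were called by edgeR's quasi-likelihood test (adjusted p under 0.05 over all 179922 regions and a difference of at least 10 points), against 7 of all regions, or 0.00389%. At the same thresholds limma called 0 of the 54. At an unadjusted p under 0.05 edgeR gave 1 region of 54, where all regions gave 6.34%. That region was higher (2.73% of all regions), and 0 were lower (3.62% of all regions). Mean differences of the islands ran from -2.36 points at Dkk3 to 1.098 points at Sfrp4, with a median of 0.272. Among the 15 island regions 10 were higher and 5 lower in AOM/DSS, with a median difference of 0.520 points. Over all 46066 dense regions 23330 were higher and 22455 lower, with a median of 0.0181 points. Groups did not overlap in 5 regions that were higher (14.8% of all regions) and 9 that were lower (20.8% of all regions).

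Outside the islands, 1 region met the naming rule of at least 10 points without overlap, a share of 5.08% among all regions for lower levels, and 0 met it for higher levels (1.98% of all regions). It lies in Sfrp5 at chr19:42272573-42272969, 3.74 kb from the island, with 12 CpGs. The control libraries held 50% and 62.6% and the AOM/DSS libraries 41.5% and 48.99%, on 91 to 149 calls. The mean changed by -11.1 points, which did not pass (edgeR adjusted p = 0.852). A sparse Sfrp5 region nearer the island, within the promoter segment, chr19:42275172-42275286 with 4 CpGs, had a wide spread, at 86.4% and 32.0% in control and 33.3% and 51.4% in AOM/DSS, on 21 to 37 calls. The means differed by -16.8 points and the groups overlapped (edgeR adjusted p = 0.915).

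The smallest unadjusted p of this comparison belonged to the low region of Wif1 at chr10:120533025-120533353, which was chosen for mention after its values were seen. It held 3.03% and 3.85% in control and 8.31% and 6.29% in AOM/DSS on 264 to 421 calls, 3.86 points higher (edgeR unadjusted p = 0.0222, adjusted p = 0.736). Both AOM/DSS libraries lay above the other 4. The smallest adjusted p over the 54 regions ranged from 0.706 to 0.955 over the alternatives.

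Sfrp2 is a case in which summing calls and averaging regions gave different answers. Outside the island its pooled level was 49.1% ± 1.61 (SD, n = 2) in control. In AOM/DSS it was 55.6% ± 3.38, which is 6.47 points higher without overlap. As a mean of the 6 region levels the difference was -0.051 points, and with islands at 3 CpGs per 100 bases it was 0.39 points. For curcumin against control the summed difference of 4.39 points became 0.772 as a mean of region levels and -0.985 with islands at 3 CpGs per 100 bases. The highly methylated 19-CpG region supplied 147 and 154 calls in control and 179 and 231 in AOM/DSS, while its own level differed by 1.38 points.

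**Figure D4:**
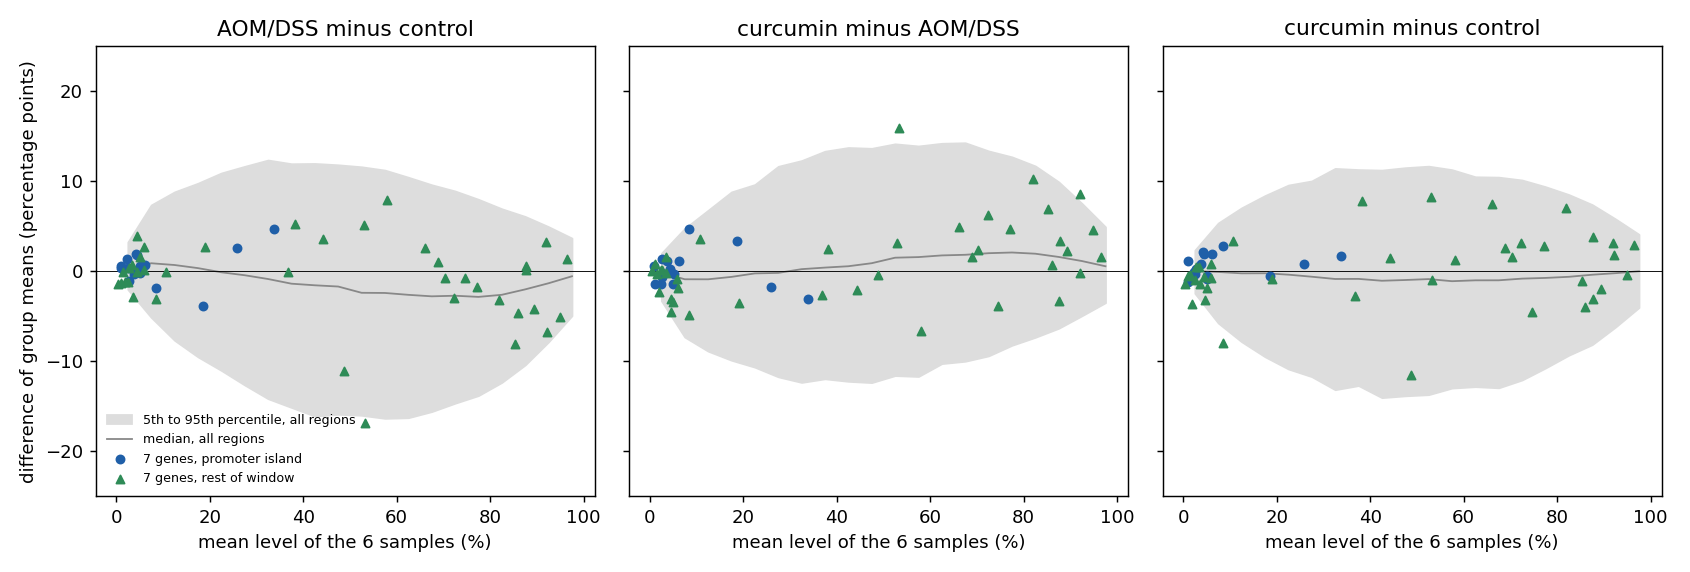
Difference of group means (y axis, percentage points) against the mean level of the 6 samples (x axis, percent) for the 54 tested regions in the 3 comparisons, over the 5th to 95th percentile (grey) and median (line) of all 179922 regions in steps of 5% in level. Island regions (circles) stay within 5 points of 0, and the regions with 10 points or more are intermediate or highly methylated regions outside the islands.

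The second comparison, curcumin against AOM/DSS alone, asked whether curcumin changed these genes under the same treatment. It shares the AOM/DSS samples with the first, so a library that is high or low there enters both. No region of the 54 was called by edgeR, as in the whole table (0%), and limma called 0. At an unadjusted p under 0.05 there were 3 regions, all lower with curcumin, where 2.69% of all regions were lower, 2.56% higher and 5.25% either. Island differences ran from -1.07 points at Sfrp4 to 1.95 points at Dkk3, with a median of 0.584. Among the 15 island regions 8 were higher and 7 lower, with a median of 0.109 points. Over all 46066 dense regions 22282 were higher and 23497 lower, with a median of -0.0294 points. Without overlap, 9 regions of 54 were higher (18.9% of all regions) and 6 were lower (16% of all regions).

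The 3 regions with an unadjusted p under 0.05 were the Sfrp2 island region with 31 CpGs, described above, and 2 of the low places in the body of Wif1, all under 10% in every library. At chr10:120533025-120533353 the curcumin libraries held 2.12% and 3.48%, a difference of -4.50 points from AOM/DSS (edgeR unadjusted p = 0.00586, adjusted p = 0.928) and overlapping the control values. At chr10:120496431-120496677 no call was methylated with curcumin, among 92 and 51 calls, which allows up to 3.26% and 5.88%. AOM/DSS held 2.86% and 1.89% there (edgeR unadjusted p = 0.0475, adjusted p = 0.940). These limits reach above the AOM/DSS levels, so a difference was not detectable at this depth.

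By the naming rule 2 regions were at least 10 points higher with curcumin than in AOM/DSS without overlap (3.86% of all regions), both sparse and thinly covered, and 0 were lower (2.17% of all regions). The 4-CpG Sfrp5 region chr19:42275172-42275286 held 64.5% and 51.9% with curcumin, where AOM/DSS held 33.3% and 51.4% (edgeR adjusted p = 0.967). The 4-CpG Dkk3 region chr7:119282069-119282181 held 93.5% and 81.8% with curcumin, where AOM/DSS held 80.5% and 74.5%, on 22 to 47 calls (edgeR adjusted p = 0.965), and control spanned 70% to 91.4%. Neither passed. The 12-CpG Sfrp5 region that was lower in AOM/DSS held 43.1% and 46.5% with curcumin, a mean difference of -0.449 points from AOM/DSS.

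The third comparison, curcumin against control, again called 0 of 54 regions in edgeR (0% of all regions) and 0 in limma, with 2 at an unadjusted p under 0.05 (4.17% of all regions; 2.34% lower and 1.83% higher). Both were lower. These were the Sfrp2 island region and the Wif1 region at chr10:120496431-120496677, at 2.13% and 5.08% in control (edgeR unadjusted p = 0.0131, adjusted p = 1). Island differences ran from -0.403 points at Dkk3 to 1.34 points at Sfrp5. Of the 15 island regions 9 were higher with curcumin and 6 lower, with a median of 0.753 points. Over all 46066 dense regions 22698 were higher and 23050 lower, with a median of -0.00144 points. The 12-CpG Sfrp5 body region met the naming rule here too, lower with curcumin by a difference of -11.5 points (edgeR adjusted p = 1; 3.01% of all regions were lower by that rule and 1.94% higher), while its AOM/DSS and curcumin values overlapped. Without overlap, 11 regions were higher (14.3% of all regions) and 9 lower (17.7% of all regions).

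With 2 samples against 2, 0.33 is the smallest two-sided p that an exact permutation test of a gene's level allows, and it was also the smallest found in each comparison, for islands and for the rest of the windows alike. A missed threshold does not show that the groups are equal.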

How the data were processed

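Captured DNA (Agilent SureSelectXT Mouse Methyl-Seq) of 6 samples was bisulfite-sequenced. The build, mm9, and the tools R 3.4.0, ChIPseeker 1.10.3 and Bismark 0.15.0 are listed in the submitters' processing notes, without roles. The labels do not state how regions were drawn or duplicates treated. The deposited values are counts per region: CpGs, methylation calls and methylated calls. No deposited region has fewer than 20 calls, and others are blank.

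From these counts, regions with at least 10 calls in all 6 samples (179922) were fitted with edgeR 4.0.16 in R 4.3.3: quasi-likelihood test, a coefficient per sample for coverage and per group for methylation, Benjamini-Hochberg over all regions. limma 3.58.1 on log2 ratios of calls plus 1 was the main alternative tool. Levels were computed in Python 3.11.15 with pandas 2.3.3 and scipy 1.17.1. Region coordinates are as deposited; the labels do not state if a start is 0-based or 1-based. The strand of Sfrp1, Sfrp4 and Dkk3 is background knowledge; for the other 4 it is RefSeq's.

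Members, windows, lists and tests were chosen with earlier results of these data known. Named regions were the CpG-richest island region per gene and, per comparison and direction, up to 5 regions at least 10 points apart without overlap, by smallest p. All other regions given by position were chosen after their values were seen. A list of other Wnt pathway genes, and lists of epithelial, leukocyte and stromal markers, were not analysed: no mm9 annotation was used, and the CpG spacing of the 4 RefSeq promoters met the region ends in their windows at 1 to 34 places. Placing those lists by spacing had been planned, and was dropped because of this ambiguity. Genes of like pattern were therefore not named. Replicate numbers 0 and 1 are shared by the groups; over all regions the replicate differences of 2 groups correlated at 0.00755 to 0.0548, so the numbers were not taken as pairs.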

Additional observations from a re-analysis of the deposited data

Results flagged for a closer look

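Some regions blank in at least 1 library had no test but held a treated library at least 10 points above the highest control library. In Wif1, chr10:120533698-120533825 (6 CpGs), 0.345 kb beyond the low region that was highest in AOM/DSS, held 38.7% in AOM/DSS replicate 1 on 31 calls and 40% in curcumin replicate 0 on 40 calls. Control held 9.30% and 7.69% there and curcumin replicate 1 held 9.52%, while AOM/DSS replicate 0 was blank. In Dkk3, chr7:119281897-119281957 (3 CpGs) held 95.8% in curcumin replicate 0 on 24 calls, against 80.0% in the only control library with a value and 82.6% in curcumin replicate 1. In the opposite direction, the Sfrp4 region chr13:19711890-19712043 (3 CpGs) held 20% and 25% in control, 2.94% and 9.68% in AOM/DSS and 13.5% in the only curcumin library with a value, on 20 to 37 calls.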

How the results depend on the processing

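No region of the 7 genes was called in any of the 3 comparisons under any alternative run: at least 30 or 50 calls (47 and 43 regions left), no minimum difference or 20 points, only the 4 samples compared, limma, each sample left out in turn, or the replicate number as a block. With the replicate block the count stayed at 0 in each comparison, and the smallest adjusted p was 0.7065, 0.797 and 1. A minimum of 20 points can only remove calls, and the main test called 7, 0 and 0 of all 179922 regions. Counts of 0 were thus likely from the start and do not show that the results are stable. Leaving out each sample in turn gave counts of 0 throughout; a lone sample was then assumed to vary like the other groups. At an unadjusted p under 0.05 the main counts of 1, 3 and 2 regions ranged over all alternatives from 1 to 2, 1 to 4 and 1 to 3. The first was 2 without control replicate 0, control replicate 1 or AOM/DSS replicate 1; the second 1 without AOM/DSS replicate 0 or curcumin replicate 1; the third 1 without control replicate 1 or curcumin replicate 0. Of 90 island differences recomputed with other settings, 81 moved by less than the spread between replicates and 11 turned in sign. The 81 overstate stability, since a promoter segment of 4000 bases left every island difference as it was. Using all regions with a value moved 0 of 18. Islands at 3 CpGs per 100 bases moved 5 of 18 and turned 5 in sign. Leaving out a sample turned the sign of 20 of 72; with 2 samples a group such a change cannot exceed that spread, so its size shows nothing about stability. The largest island difference under any setting was 3.67 points. For the rest of the windows, 90 of 102 moved less than the spread and 11 turned in sign, as did 21 of 84 on leaving out a sample. The 4000-base segment again changed nothing, while means of region levels moved 6 of 21 and turned 6 in sign. The largest difference was 17.3 points, for curcumin minus control at Sfrp5, where treated libraries held regions blank in control. With islands at 3 CpGs per 100 bases the Dkk1 regions count as an island and its window holds no other region. Depth limits the sparse regions most: the thinnest tested region had 20 calls in a library.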
